A study of Saccharomyces cerevisiae with 2 samples.

Results

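The subunit genes of the nuclear RNA polymerases of budding yeast (Saccharomyces cerevisiae) were examined as a group of 31 named genes out of the 6002 nuclear protein-coding genes of an R64 gene table. They were chosen by name: 7 encode subunits of RNA polymerase I (Pol I) alone, 7 of Pol II alone, 10 of Pol III alone, 2 are shared by Pol I and Pol III, and 5 are shared by all 3 enzymes. All 31 names had a match in the gene table. Sites hypersensitive to DNase I (DHS), where the enzyme cuts chromatin readily, and footprints, short protected stretches within them, were mapped by sequencing in 1 library of a strain with the temperature-sensitive Hsp90 allele G170D and in 1 library of a wild-type (WT) strain. Both strains are labelled with the background BY4741, and both were grown in rich medium (YPD) at 37 °C for 6 h, starting at an OD of 0.37 in G170D and 0.25 in WT and ending at 0.65 to 0.7. Growth over these hours thus differed between the strains and cannot be told apart from the allele. The labels do not say which of the Hsp90 genes carries the allele, nor whether the strains were otherwise altered, and the lists hold no sequence with which to check it.

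Pol I transcribes the ribosomal RNA precursor, Pol II transcribes messenger RNAs and many small RNAs, and Pol III transcribes tRNAs, 5S ribosomal RNA and other short RNAs. The enzymes have a common plan, with a pair of large catalytic subunits, an assembly platform, a stalk and small subunits that several enzymes use. The genes for all of these subunits are themselves transcribed by Pol II, though windows of fixed length around them can also reach other genes. Hsp90 is an abundant chaperone, and in human cells Hsp90 with the R2TP complex is known to assist assembly of RNA polymerase II.

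The lists held 2875 DHS and 33585 footprints in G170D, against 3155 DHS and 45019 footprints in WT. With 1 library per strain there is no replicate error and no test across replicates, each value describes these libraries, and the intervals are exact 95% intervals for counting error only. The read depth behind the lists is unknown, and the length of a list can depend on it. DHS scores are the authors' values and serve here only to rank regions within a list. 3 windows were read for each gene: the 500 bp upstream of the coding start, the coding region, called the body, and the 500 bp after the coding end. Footprints were counted by their midpoint.

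Upstream of the subunit genes nearly the same genes had a DHS in both strains, and the DHS differed in length at a few of them. A DHS reached the upstream window of 14 of the 31 genes in both strains (45.2%, 27.3 to 64.0), of 1 gene in G170D only (RPB4), of 1 gene in WT only (RPA34) and of 15 genes in neither strain. Over all 6002 genes 24.6% had an upstream DHS in both strains, 4.98% in G170D only, 7.05% in WT only and 63.4% in neither. Summed over the members the upstream windows held 4096 bp of DHS in G170D and 3768 bp in WT, a difference of 328 bp or 8.7%, where all genes together differed by -9.09%. The median was 0 bp in both strains, for the members and for all genes alike. The covered length was greater in G170D at 8 members and in WT at 7, against 11.2% and 18.7% of all genes. Footprints numbered 73 in each strain, a ratio of 1.0 (0.713 to 1.4), against 0.822 over all genes. Some lie in windows that members share, and the interval takes these as separate counts. With each footprint counted once they numbered 70 in G170D and 67 in WT. With the footprint lists cut to the same number by score the members' ratio was 1.55 (1.06 to 2.29), from 73 and 47 footprints. This interval lies above 1. The 0.822 over all genes is from the uncut lists, and its value under the cut is not given here.

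This sum rests on few genes. At 3 members, RPC34, RPC37 and RPC10, the G170D DHS was at least 250 bp longer, a size reached by 2.32% of all genes, and at 1 member, RPA34, the WT DHS was at least 250 bp longer, a size reached by 3.23%. The limit of 250 bp was chosen after the values were seen. Without RPC10 the summed difference was -121 bp and without RPC34 it was -6 bp, while without RPA34 it was 701 bp and without RPA12 it was 568 bp. With windows of 1000 bp it was -183 bp, and with the 25% of each list lowest by score left out it was 930 bp. Of the covered bases, 2814 bp were open in both strains, 1282 bp in G170D alone and 954 bp in WT alone. The bases in common made up 68.7% of the G170D length and 74.7% of the WT length, against 80.6% and 73.3% over all genes.

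**Figure D1:**
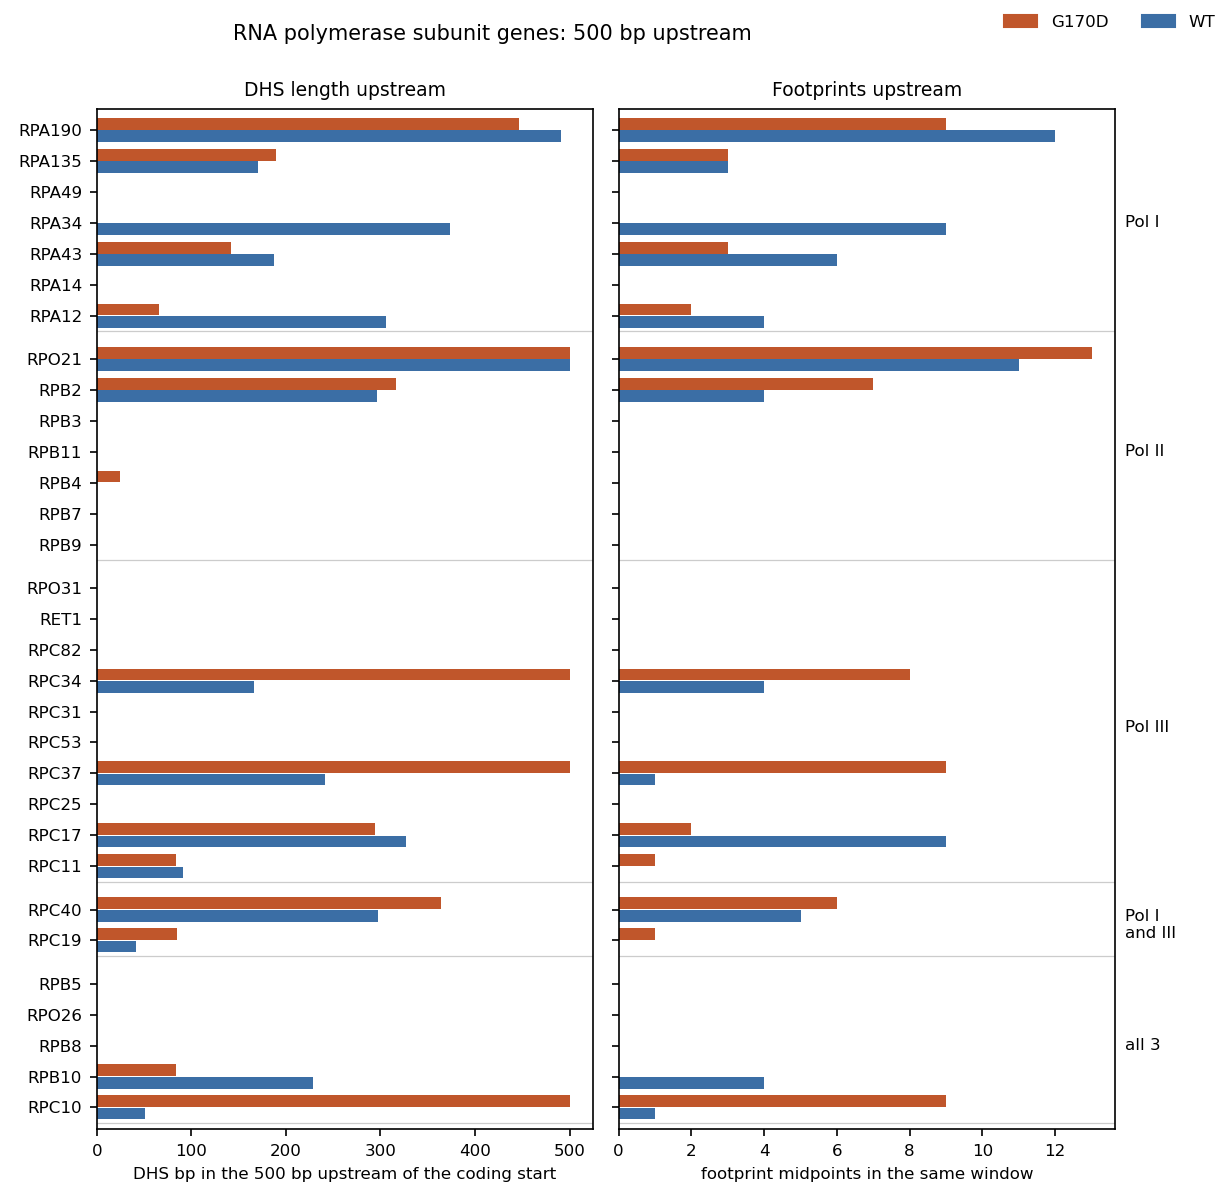
DHS length in bp (left) and number of footprint midpoints (right) in the upstream window of the 31 subunit genes, grouped by polymerase, with G170D above WT for each gene. The window is full, at 500 bp, in G170D at RPO21, RPC34, RPC37 and RPC10 and in WT at RPO21, while RPA34 is covered in WT alone, with 373 bp.

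By polymerase the summed upstream differences went opposite ways, but each sum rests on few genes. Over the Pol I genes the windows held 844 bp of DHS in G170D and 1528 bp in WT, and over the Pol III genes 1378 bp in G170D and 825 bp in WT. Over the Pol II genes they held 841 and 796 bp, over the genes shared by Pol I and Pol III 449 and 339 bp, and over the genes shared by all 3 enzymes 584 and 280 bp (G170D and WT in each case). All genes together differed by -9.09%. Of the 7 Pol I genes 1 was longer in G170D and 4 in WT. Of the 10 Pol III genes 2 were longer in G170D (RPC34 by 334 bp, RPC37 by 259 bp), 2 in WT and 6 were covered in neither. Among the genes of all 3 enzymes, RPC10 differed by 449 bp and RPB10 by -145 bp. Footprints followed the same order: the Pol I windows held 17 in G170D (9.9 to 27.2) and 34 in WT (23.5 to 47.5), a ratio of 0.5 (0.262 to 0.92), and the Pol III windows 20 (12.2 to 30.9) and 14 (7.65 to 23.5), a ratio of 1.43 (0.686 to 3.06). The intervals of both ratios hold the 0.822 over all genes. RPA34 alone held 0 of the G170D and 9 of the WT footprints of the Pol I windows. Whether the polymerases differ from each other was not tested, since there is 1 library per strain and the classes hold few genes. The Pol I difference of -684 bp was -71 bp when the 25% of each list lowest by score were left out, because the regions at RPA34 and RPA12 stand among them.

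**Figure D2:**
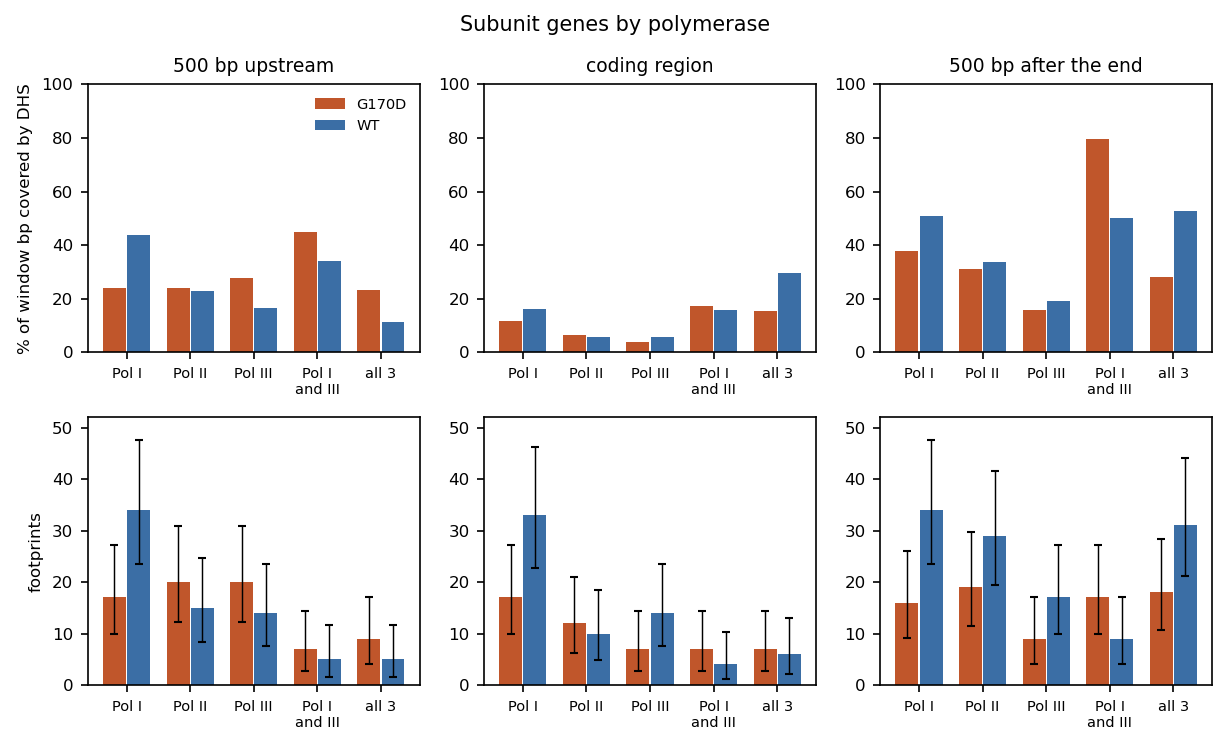
Subunit genes summed by the polymerase they belong to, with G170D left of WT: the top row gives the percentage of window bases covered by DHS, and the bottom row the number of footprints with exact 95% Poisson intervals, for the upstream window, the coding region and the 500 bp after the end. Upstream, Pol I genes are covered over 24.1% in G170D and 43.7% in WT, and Pol III genes over 27.6% and 16.5%.

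Among the Pol I genes, RPA34 (X:140437-141138, forward strand) encodes a subunit that forms a heterodimer with RPA49 and resembles the general factor TFIIF. Its upstream window held 0 bp and 0 footprints in G170D, against 373 bp and 9 footprints in WT. The WT region, X:140064-140437, ended on the first coding base and stood at place 2596 of 3155 by score. The window was thus open in WT alone, by a region of low score. Within the gene the order was turned: a DHS of 464 bp (X:140674-141137) lay in the G170D body and one of 273 bp (X:140836-141108) lay in the WT body. Further upstream, beyond the window, a DHS over part of the snoRNA gene SNR190 came to 542 bp from the RPA34 coding start in WT, while the nearest G170D region there ended 990 bp away, so that with windows of 1000 bp the difference at RPA34 was -821 bp.

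RPA12 (X:555195-555572, forward strand) encodes the subunit for cleavage of RNA by Pol I. Its upstream window held 66 bp and 2 footprints in G170D and 306 bp and 4 footprints in WT. The regions did not overlap: the G170D DHS lay 627 to 435 bp upstream (X:554568-554760) and the WT DHS lay 433 to 128 bp upstream (X:554762-555067). The G170D region lay within the neighbouring gene NTA1, and the WT region overlapped the near edge of NTA1. With windows that ended at the nearest coding region RPA12 had an upstream DHS in WT only, and the difference was -218 bp. The regions stood at places 2261 of 2875 in G170D and 2631 of 3155 in WT. Both were regions of low score, side by side, and WT had a longer one within the window. After the end of RPA12 the G170D region was the longer, at 299 bp in G170D and 207 bp in WT, and the DHS there (X:555407-555871 in G170D, X:555458-555779 in WT) stood at place 681 in G170D and 1631 in WT.

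RPA190 and RPA43, for the largest subunit and for a stalk subunit, form a divergent pair with 804 bp between their coding starts on chromosome XV (RPA190 at 960987-965981, RPA43 at 959202-960182). A single DHS lay between them in each strain, XV:960541-961408 in G170D and XV:960496-961439 in WT, and reached into RPA190. The window of RPA190 held 446 bp and 9 footprints in G170D and 491 bp and 12 footprints in WT. That of RPA43 held 142 bp and 3 footprints in G170D and 187 bp and 6 footprints in WT. The windows of the pair share 196 bp, and with shared bases and footprints counted once the Pol I genes had 702 bp and 14 footprints in G170D and 1341 bp and 28 footprints in WT. The strongest footprint of the RPA190 window was the same 30 bp in both lists, XV:960779-960808, centred 194 bp upstream of the coding start. In the RPA43 window the strongest footprint was also the same in both, 8 bp at XV:960635-960642, and stood at place 25663 of 33585 in G170D and 6329 of 45019 in WT.

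RPA135 (XVI:577585-581196, reverse strand), for the subunit that pairs with RPA190 in the catalytic core, held 190 bp and 3 footprints in G170D and 171 bp and 3 footprints in WT upstream. These bases were the edge of a wide DHS over the tRNA gene YNCP0010W, 1482 bp in G170D and 1513 bp in WT, whose near edge lay 311 and 330 bp from the coding start. No footprint of this window overlapped one of the other strain. RPA49 (XIV:181361-182608, reverse strand) had no DHS upstream in either strain and 500 bp after its end in both, with 8 footprints in G170D and 12 in WT. RPA14, which pairs with RPA43 in the stalk, had no DHS in any of the 3 windows in either strain.

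The Pol II genes differed by 45 bp upstream in sum, and by -308 bp with windows of 1000 bp. RPO21 (IV:205360-210561, reverse strand), for the largest subunit, was covered over the whole 500 bp in both strains, with 13 footprints in G170D and 11 in WT, and its DHS reached 375 bp past the coding start in G170D and 124 bp in WT. This region stood at place 649 of 2875 in G170D and 1153 of 3155 in WT. RPB2 (XV:612997-616671, reverse strand), for the other large subunit, held 316 bp and 7 footprints in G170D and 296 bp and 4 footprints in WT, and the far edge of the DHS was the same base, 616987, in both. The covered length of these upstream windows was thus close between the strains, but not the reach into RPO21. RPB4, for a stalk subunit, had a DHS of 25 bp upstream in G170D (X:150881-150905), with no footprint and at place 2675 of 2875, and 0 bp in WT. RPB7, the partner of RPB4 in the stalk, RPB9, a small subunit with a role in start site choice and fidelity, and RPB3 and RPB11, which form the assembly platform, had no upstream DHS in either strain.

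Among the Pol III genes 4 of 10 had an upstream DHS, and the same 4 genes in both strains. RPC37 (XI:487770-488618, forward strand) encodes a subunit that pairs with RPC53 and takes part in termination. Its window held 500 bp and 9 footprints in G170D and 241 bp and 1 footprint in WT. The G170D region was unbroken, XI:487222-487829, where WT had a pair of shorter ones with a gap between, XI:487230-487450 and XI:487710-487821. The outer edges of the G170D region and of the WT pair lay 8 bp apart on each side. The G170D region stood at place 929 of 2875, and the WT regions at places 1897 and 2903 of 3155.

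RPC34 (XIV:634344-635297, reverse strand) encodes a subunit of the initiation trimer with RPC82 and RPC31. Its window held 500 bp and 8 footprints in G170D and 166 bp and 4 footprints in WT. Here too 1 unbroken G170D region (XIV:635249-636103) faced a pair in WT, XIV:635200-635336 at the coding start and XIV:635671-637160 further upstream. WT was open on both sides of a stretch that was listed as open in G170D alone. The WT region at the start stood at place 2782 of 3155, and the G170D region at place 1355 of 2875. Each of these spaces is shared with a divergent gene, SWM2 at 645 bp from RPC34 and DBP7 at 397 bp from RPC37. The RPC37 window thus reaches into DBP7. In the full lists the sums at RPC34 and RPC37 therefore differ by a stretch in the middle of each promoter, 334 and 259 bp long. This depends on the WT regions at the coding starts, which stand in the lowest 25% of the list by score. Without the lowest 25% of each list the differences were 373 and 319 bp.

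RPC17 (X:414285-414770, reverse strand), a stalk subunit gene, has the tRNA gene YNCJ0018W 195 bp upstream of its coding start. A DHS of 3041 bp in G170D and 3070 bp in WT held that tRNA gene and YNCJ0019C, and was the highest ranked region among those that touch a window of the members, at place 172 in G170D and 182 in WT. The RPC17 window held 294 bp in G170D and 327 bp in WT, but 2 footprints in G170D and 9 in WT. The strongest footprint of the window was centred 336 bp upstream in G170D (X:415099-415114, place 25899 of 33585). In WT it was centred 391 bp upstream (X:415158-415164, place 6969 of 45019). Each overlapped a footprint of the other strain, so that both sites were listed in both strains and their order by score differed. In the window 2 of 2 G170D and 2 of 9 WT footprints overlapped. RPC11 (IV:547978-548310, reverse strand), for the small subunit that cleaves RNA, held 84 and 91 bp upstream in G170D and WT, from a DHS that covered the whole gene in both. No upstream DHS was listed in either strain for RPO31 and RET1, the catalytic pair of Pol III, for RPC82, RPC31 and RPC53, or for RPC25, the partner of RPC17.

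The shared subunit genes held the largest upstream difference. RPC10 (VIII:387233-387445, forward strand) encodes a small zinc-binding subunit of all 3 enzymes. Its upstream window held 500 bp and 9 footprints in G170D and 51 bp and 1 footprint in WT. Its downstream window was the reverse, at 0 bp and 0 footprints in G170D and 500 bp and 8 footprints in WT. The DHS were of like width, 712 bp in G170D (VIII:386615-387326) and 773 bp in WT (VIII:387182-387954), and of middling rank, 1134 of 2875 and 1494 of 3155. They overlapped from 51 bp upstream to the first 94 bp of the gene, the G170D region reaching away upstream and the WT region running through the gene and into the convergent neighbour DCD1. The nearest coding region upstream, DSE2, lies 745 bp away, so that the G170D window holds no other coding region.

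RPB10 (XV:738320-738532, forward strand), also a small subunit of all 3 enzymes, held 84 bp and 0 footprints upstream in G170D and 229 bp and 4 footprints in WT. Its DHS ran through the whole gene and 500 bp beyond in both strains (XV:738236-739663 in G170D, XV:738091-739309 in WT) and stood at place 378 in G170D and 448 in WT. One of the 4 WT footprints, 24 bp at XV:738148-738171, stood at place 3730 of 45019, the only member footprint upstream among the strongest 10% of its list. RPC40 (XVI:745828-746835, reverse strand), an assembly platform subunit of Pol I and Pol III, held 364 bp and 6 footprints in G170D and 297 bp and 5 footprints in WT. RPC19, its partner, held 85 bp and 1 footprint in G170D and 42 bp and 0 footprints in WT. RPB5, RPO26 and RPB8, for the other subunits of all 3 enzymes, had no upstream DHS in either strain.

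**Figure D3:**
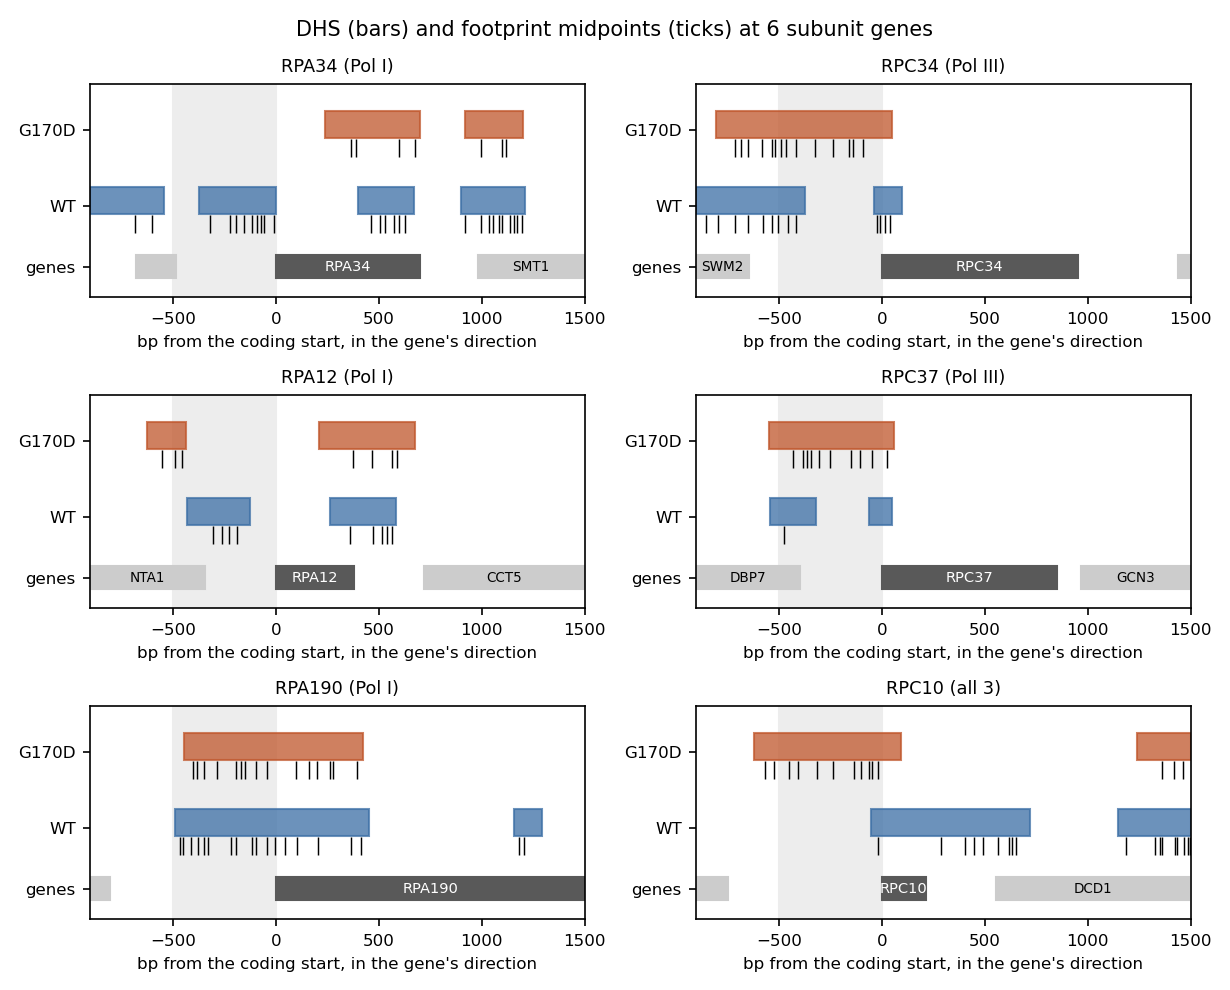
DHS (bars) and footprint midpoints (ticks) of G170D (above) and WT (below) at RPA34, RPA12, RPA190, RPC34, RPC37 and RPC10, by distance in bp from the coding start, with the named gene in dark grey, its nearest neighbours in light grey and the upstream window shaded. RPA34 has an upstream DHS in WT alone, at RPC34 and RPC37 a single G170D region spans the gap between WT regions, and at RPC10 the G170D region reaches upstream of the gene and the WT region runs through it and beyond.

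Within the coding regions the members held 3363 bp of DHS in G170D and 4366 bp in WT, a difference of -23.0%, against -22.5% over all genes. The covered length was greater in G170D at 5 members and in WT at 12, against 13.7% and 33.1% of all genes. A DHS touched the body of 16 members in both strains (35.2% of all genes), of 1 in G170D only, RPC19 (5.0% of all genes), and of 2 in WT only, RPB11 and RPO31 (9.68% of all genes). Per length, the members' bodies were covered over 7.88% in G170D and 10.2% in WT, near the 9.94% and 12.8% of all genes. With the lowest 25% of each list left out the difference was 22 bp in place of -1003 bp, so that it rests on regions of low score. Footprints in the body numbered 50 in G170D and 67 in WT, a ratio of 0.746 (0.507 to 1.09), which was 1.11 with lists of the same number.

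In bp, the largest differences in the body were at RPA135, RPA190 and RPO21, which are among the longest of these genes. RPA135 held 88 bp in its body in G170D and 551 bp in WT, or 2.44% and 15.3% of its length. RPA190 held 611 bp in G170D and 918 bp in WT, or 12.2% and 18.4%, and RPO21 went the other way, with 376 bp in G170D and 125 bp in WT. RET1 held 144 bp in G170D and 294 bp in WT, from regions at different places in the gene (XV:730369-730512 in G170D and XV:732342-732635 in WT), neither of which had a counterpart. The short genes RPC11 and RPB10 were covered over 100% of their length in both strains, and RPC10 over 44.1% in G170D and 100% in WT. RPO26 held 12 bp in G170D and 181 bp in WT, or 2.21% and 33.3% of its length. By share of length, the differences at RPC10 and RPO26 exceed those of the long genes. Short genes also went the other way: RPA34 was covered over 66.1% in G170D and 39.0% in WT. RPC19 was covered over 30.8% and 0%, and RPA12 over 43.9% and 30.4%.

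After the coding ends the members held 4709 bp of DHS in G170D and 5748 bp in WT, a difference of -18.1%, against -13.4% over all genes. The covered length was greater in G170D at 4 members and in WT at 11, against 12.9% and 24.6% of all genes. A DHS reached it in both strains at 12 members (34.5% of all genes), in G170D only at RPC19 and RET1 (4.73% of all genes) and in WT only at 5 members (8.68% of all genes), namely RPA135, RPB11, RPC25, RPC17 and RPC10. The 5 genes are 16.1% of the members, with an interval of 5.45 to 33.7 that holds the share of all genes. Footprints numbered 79 in G170D and 120 in WT, a ratio of 0.658 (0.489 to 0.882), against 0.756 over all genes. With lists of the same number the members' ratio was 0.806 (0.592 to 1.1), an interval that holds 1.

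RPC19 (XIV:412771-413199, forward strand) had the longest DHS cover after a coding end that was listed in G170D alone. Its body held 132 bp and 4 footprints in G170D and 0 bp and 0 footprints in WT, and its downstream window held 297 bp and 8 footprints in G170D and 0 bp and 0 footprints in WT. A G170D region of 303 bp (XIV:413068-413370) across its end stood at place 579 of 2875 and overlapped no WT DHS. This is the space before DBP2, an RNA helicase gene on the same strand 439 bp on. A further G170D region of 130 bp (XIV:413574-413703), at place 1959, reached into DBP2. It held 4 footprints and also overlapped no WT DHS. In the other direction, RPA135 held 0 bp after its end in G170D and 418 bp with 4 footprints in WT, at place 2508 of 3155. RPC17 held 0 bp there in G170D and 255 bp with 3 footprints in WT, and RPC25, whose window there reaches the proteasome gene RPT1, held 0 bp in G170D and 126 bp in WT. RPB11 held 0 bp in G170D and 26 bp in WT, and RET1 held 133 bp in G170D and 0 bp in WT.

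At other genes a downstream DHS was listed in both strains. RPB2, RPC40, RPA49 and RPB10 were covered over the whole 500 bp in both strains. RPB2 held 15 footprints in G170D and 16 in WT, RPB10 held 16 and 18, and RPC40 held 9 in each strain, its strongest at XVI:745409-745428 in both. RPB7 held 415 bp in G170D and 445 bp in WT, RPC11 349 and 447 bp, RPB9 176 and 213 bp, and RPO26 201 and 319 bp. RPA34 held 278 bp and 3 footprints in G170D and 303 bp and 10 footprints in WT, and RPA190 held 247 bp in G170D and 350 bp in WT. RPO31 held 314 bp in G170D and 139 bp in WT. Many of these windows reach a neighbouring gene: with windows that ended at the nearest coding region the summed difference was -602 bp in place of -1039 bp. Without RPA135 and RPC17, whose upstream DHS hold tRNA genes, it was -366 bp, although their downstream regions hold none.

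**Figure D4:**
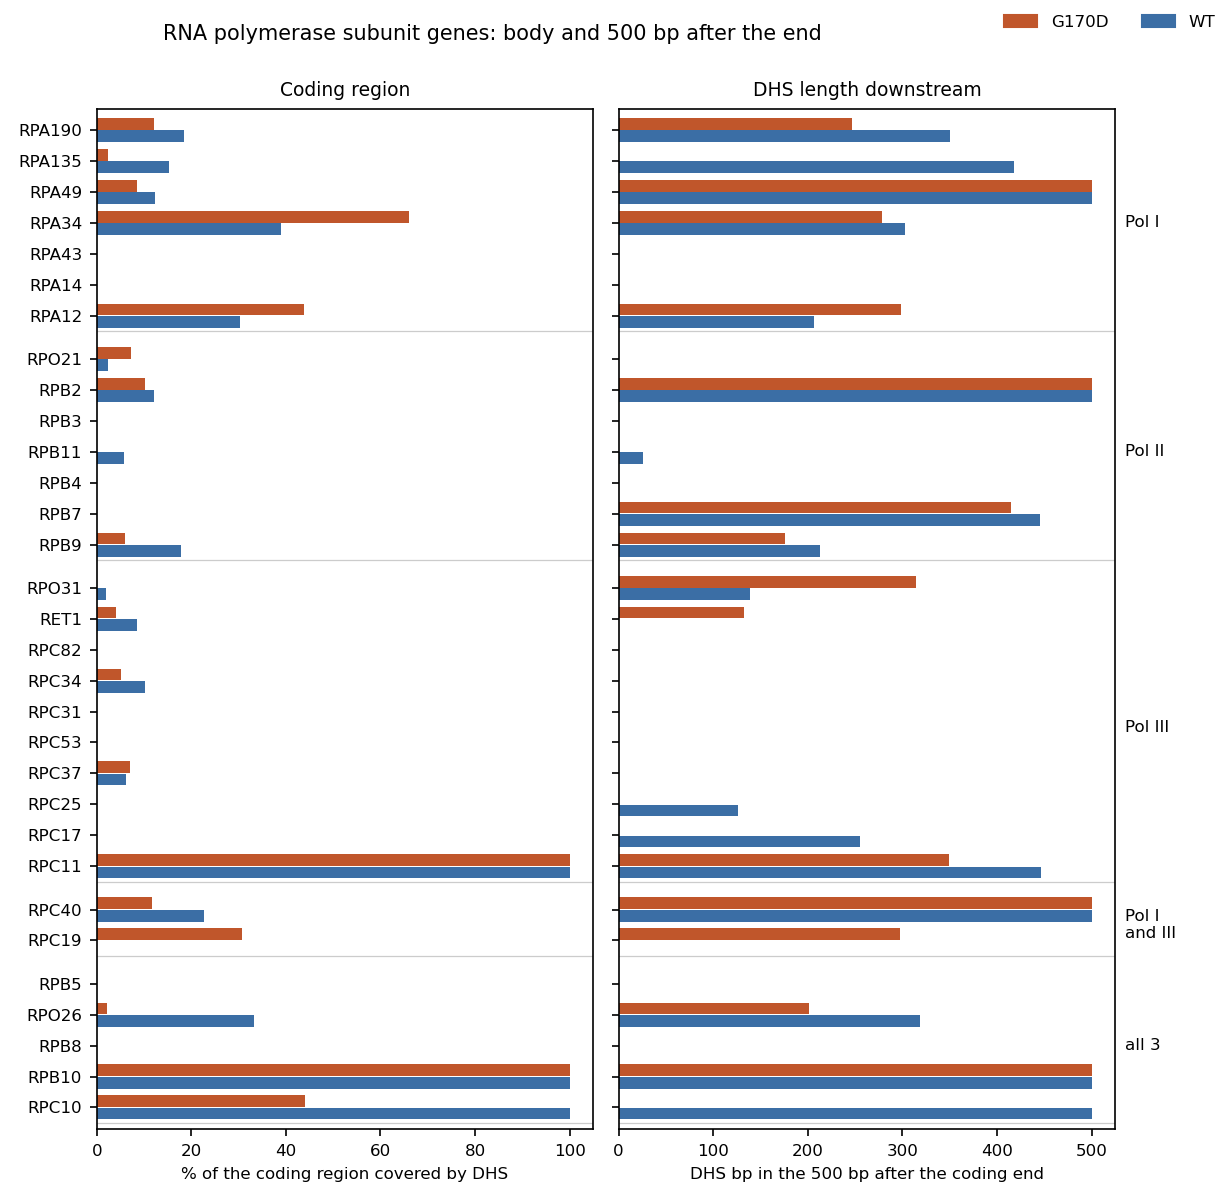
Percentage of the coding region covered by DHS (left) and DHS length in the 500 bp after the coding end (right) for each of the 31 subunit genes, grouped by polymerase, with G170D above WT. RPC10 is covered over 500 bp after its end in WT and 0 bp in G170D, and RPC19 over 297 bp in G170D and 0 bp in WT.

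Along the genes, DHS cover of the members was highest after the coding end, at 34.2% of bases 100 to 200 bp after it in G170D and 41.7% of bases 200 to 300 bp after it in WT. Over all genes the highest values were 26.8% in G170D and 30.7% in WT. Around the coding start the members had 28.8% in G170D and 26.5% in WT in the last 100 bp before it, against 17.7% and 19.7% over all genes. From 300 to 400 bp after the start they had 25.6% and 25.1%, against 8.94% and 11.8%. From 700 to 800 bp after it they had 7.94% and 16.2%, against 11.5% and 14.5%. These percentages rest on the 31 members, and on the same DHS as the window sums.

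**Figure D5:**
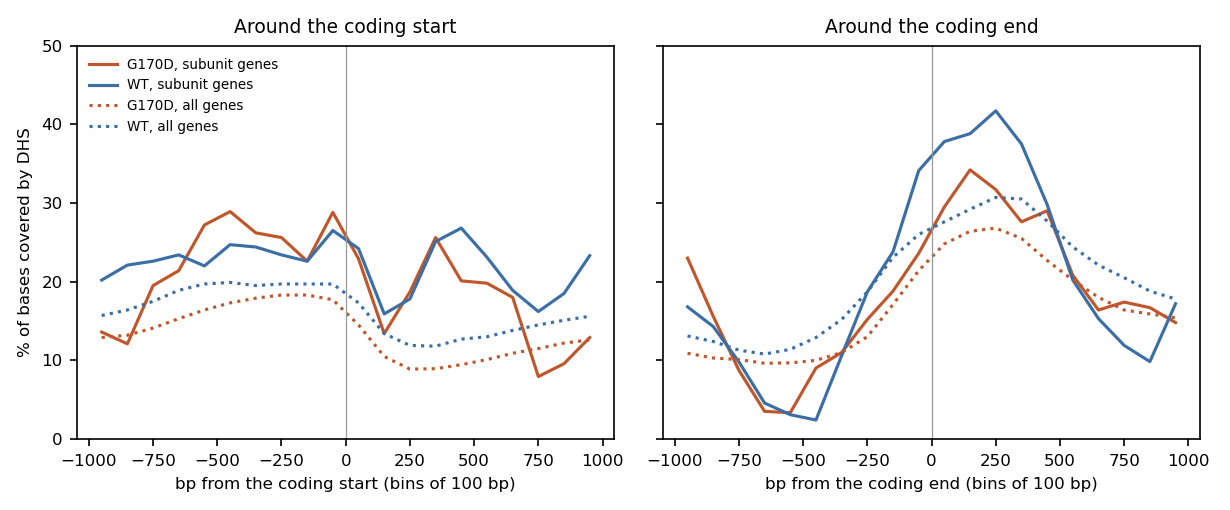
Percentage of bases covered by DHS in bins of 100 bp around the coding start (left) and the coding end (right), for the 31 subunit genes (solid) and all 6002 genes (dotted), in G170D and WT. In each strain the subunit genes lie above all genes in the 500 bp before the coding start and the 500 bp after the coding end, and highest after the end, at up to 34.2% in G170D and 41.7% in WT.

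The regions themselves were of ordinary rank. In all, 32 G170D DHS and 38 WT DHS touched the windows of the members, with a median width of 464.5 bp in G170D and 317 bp in WT, against 426 and 375 bp over the lists. In the top 25% of their list stood 7 G170D and 5 WT regions, and in the lowest 25% stood 6 and 12. Of these regions 6 in G170D (18.8%, 7.21 to 36.4) and 11 in WT (28.9%, 15.4 to 45.9) overlapped no DHS of the other strain, close to the 17.7% and 28.3% of the whole lists. Of the 11 WT regions without a counterpart 9 stood in the lowest 25% of the list, and of the 6 in G170D 2 did.

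Overlap of upstream footprints between the strains was counted once where windows share a footprint. Of 70 G170D footprints 25 overlapped a WT footprint (35.7%, 24.6 to 48.1), against 61.5% over all genes, and of 67 WT footprints 27 overlapped a G170D footprint (40.3%, 28.5 to 53.0), against 50.2%. Part of this lies in bases that only 1 strain listed as open. In bases open in both strains the shares were 25 of 49 in G170D (51.0%, 36.3 to 65.6) and 27 of 48 in WT (56.2%, 41.2 to 70.5), against 72.4% and 62.6% over all genes. The intervals of the G170D shares lie below the values of all genes, and those of the WT shares hold them. By class the upstream shares varied, each from 5 to 28 footprints. At the Pol II genes, all at RPO21 and RPB2, 55.0% of the G170D and 80.0% of the WT footprints overlapped. The shares were 42.9% and 25.0% for Pol I, 20.0% and 28.6% for Pol III, 42.9% and 60.0% for Pol I and III, and 11.1% and 20.0% for all 3. After the coding ends, 67.1% of the G170D and 45.8% of the WT footprints overlapped, near the 65.8% and 50.6% of all genes. Few upstream footprints of the members were strong: 0 in G170D and 1 in WT stood among the strongest 10% of their list, where over all upstream windows 9.83% and 10.1% did. At RPC37, 0 of 9 G170D footprints overlapped one of WT, but WT listed only 1 footprint in that window, so hardly any could. At RPO21, 8 of 13 G170D and 9 of 11 WT footprints overlapped.

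Without any DHS in the 3 windows in either strain were 7 members, RPA14, RPB3, RPC82, RPC31, RPC53, RPB5 and RPB8, or 22.6% (9.59 to 41.1) against 33.6% of all genes. A gene with no listed DHS may still be open below the threshold that the authors used, which the sources used here do not give. RPA43, RPC17 and RPB4 had a DHS upstream and none in the body, and RPA49, RPB7, RPB9, RPB11, RPO31, RET1, RPC25 and RPO26 had one in the body or after the end and none upstream.

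Other genes of the same pathways were read from 5 lists with 45 genes in all: 9 Pol I factors, 9 Pol III factors, 18 general factors of Pol II, 7 factors for assembly and nuclear import of the polymerases, and 2 genes of the mitochondrial polymerase. An upstream DHS was listed for 8 of the 45 in both strains, for 4 in G170D only, for 4 in WT only and for 29 in neither, where over all genes the shares were 24.6%, 4.98%, 7.05% and 63.4%. In G170D only were RRN11 (127 bp), a subunit of the Pol I core factor, TFC8 (55 bp), a subunit of the Pol III factor TFIIIC, SPT15 (197 bp), which encodes the TATA-binding protein that all 3 enzymes use, and IWR1 (192 bp), for nuclear import of Pol II. In WT only were MAF1 (264 bp), the repressor of Pol III, CCL1 (78 bp), a cyclin of TFIIH, GPN3 (27 bp), a GTPase for Pol II assembly, and RPO41 (216 bp), the mitochondrial RNA polymerase. Each of these held 0 bp in the other strain. The Pol I factors held 542 bp in G170D and 814 bp in WT, the Pol III factors 929 and 1264 bp, and the Pol II general factors 1718 and 1650 bp. Of the Pol III factors 5 of 9 had no upstream DHS, and MAF1 alone held 264 bp of the WT sum.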

How the data were processed

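DNase I sequencing was done on 1 library of each of the strains G170D and WT, per the labels' protocols on nuclei, for 101 cycles on 2 lanes. The labels give a selected fragment size of over 650 bp yet call the fragments short, so the actual size is not known. Per the submitters' processing notes, the tools were Bowtie 0.12.8 and FastQC and the build was sacCer3. The authors deposited lists of DHS and of footprints with a score for each region. The sources used here give neither the DHS caller nor the formula of the score, depth is unknown, and dnase2tf appears in the footprint lists' names. Infinite footprint scores (3 in G170D, 2 in WT) ranked as strongest.

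Windows were computed with Python 3.11.15, numpy 2.4.6 and pandas 2.3.3, and intervals with scipy 1.17.1 (exact Clopper-Pearson, Poisson and conditional binomial). Genes came from an R64 table, the assembly of sacCer3. Systematic names gave the strand. Of the gene lengths 96.4% were multiples of 3, so that starts and ends are those of coding regions. Coordinates are counted from 1, a DHS needed 1 bp in a window, and sums over all genes count bases again where windows of neighbours overlap. The upstream windows of 14 members reached another coding region. The counting was tested on the WT lists, with DHS removed from or added to chosen windows. That test covers the counting alone and none of the results. The members and lists were chosen with earlier results of these data known. All members were described, those with a DHS in any window with their values. Alternatives were other windows, overlaps, score thresholds and lists of the same number. The motif search that was planned needs a genome sequence, which was not used here.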

Additional observations from a re-analysis of the deposited data

How the results depend on the processing

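Of 218 values recomputed under an alternative, 159 kept direction and stayed near the reported value (lengths and counts within 1.5 times of it, footprint ratios within its interval), 48 moved further and 11 reversed; where no cause is given, the cause was not tested. With windows of 300 bp, 2 members had an upstream DHS in WT only, and the upstream differences (G170D minus WT) were 140 bp over the members, 3 bp over the genes shared by Pol I and III and 104 bp over those shared by all 3. With 1000 bp, 0 members were in WT only, and the upstream differences were -183 bp over the members, -308 bp for Pol II, 367 bp for Pol III, 37 bp for Pol I and III and 726 bp for all 3; the downstream one was -676 bp, that of RPC19 upstream -30 bp and that of RPO26 downstream 160 bp. With windows ending at the nearest coding region, 2 members were in WT only and the downstream difference was -602 bp. Without the lowest 25% by score, 0 members were in G170D only, and the differences were 930 bp upstream, 22 bp in the body, -71 bp upstream for Pol I, 20 bp for Pol II and 25 bp for Pol I and III, with -42 bp at RPC19 upstream, 49 bp at the RPC34 body and 9 bp at the RPO26 body. The count in WT only stayed at 1, but this member was RPC19 in place of RPA34, where the upstream difference was 0 bp. With lists of the same number, the footprint ratio was 1.55 (1.06 to 2.29) upstream, 1.11 (0.728 to 1.7) in the body and 0.806 (0.592 to 1.1) downstream. The body difference was then -650 bp. Where at least 250 bp of the window had to be covered, 3 members were in G170D only, 2 in WT only and 5 in both. Chosen after seeing the data, leaving out RPA135 and RPC17, whose upstream DHS hold tRNA genes, gave -540 bp in the body and -366 bp downstream, and the upstream difference was -121 bp without RPC10 and -6 bp without RPC34. No paired analysis was possible because each strain had 1 library. Unknown depth and the lack of replicates limit all values: a DHS missing from a list may lie just under its threshold.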
